A study of Mus musculus with 16 samples.

Results

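The 47 genes described here encode the extracellular matrix of the fibroblast and the enzymes that build and cut it. They were taken from a list of collagens, basement membrane proteins, elastic fibre proteins, matricellular proteins, proteoglycans, crosslinking enzymes, proteases and protease inhibitors, and are 47 of the 22367 protein-coding genes of the mm9 annotation. Each gene was given a window of its annotated body plus 20 kb on each side, and the length of that window covered by ChIP-seq islands was recorded in every library. An island is a stretch of the genome that the authors' broad-peak caller, SICER, found enriched. All 16 libraries came from 3T3-L1, a mouse embryonic fibroblast line committed to the fat lineage that becomes adipocytes after confluent cells receive an MDI mix of isobutylmethylxanthine, dexamethasone and insulin. H3K27ac, the acetylation of histone H3 on active promoters and enhancers, was profiled in cells carrying an empty retrovirus and in cells carrying a retrovirus for V5-tagged SETD5, before (0 h) and 48 h after induction, with 2 replicates, A and B, in each of the 4 groups. SETD5-V5 itself was profiled with an anti-V5 antibody at 0 h and 6 h, with 2 replicates each. The labels give the virus as SETD-V5 for replicate B of those and as a dash for replicate A. H3K4me1, which marks enhancers both before and during their activity, was measured at 0 h and 48 h, and endogenous SETD5 at 0 h and 6 h with the antibody IgG-F2104, with 1 library each. The labels give SETD-V5 for the H3K4me1 libraries, which the study presents as untransduced, and a dash for endogenous SETD5. Per the study's methods the viral SETD5 was driven by a weak long terminal repeat promoter, so the cells carried it beside their own SETD5 gene.

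Preadipocytes lie in a fibroblast matrix of fibrillar collagens I, III and V, fibronectin and matricellular proteins. As they become fat cells they surround themselves with a basement membrane of collagen IV, laminin, nidogen and collagen XV, and proteases and their TIMP inhibitors remodel the older matrix. SETD5 is a nuclear protein with a SET domain that is found with the NCoR-HDAC3 corepressor, a complex that removes histone acetylation. The comparisons below ask how acetylation of the matrix genes changed during differentiation, how it differed when SETD5 was forced, and where SETD5 lay on these genes.

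The 8 H3K27ac lists held 31292 to 39949 islands covering 103 to 122 Mb. The SETD5-V5 lists were less even. They held 16054 (A) and 6666 (B) islands at 0 h, and 35573 (A) and 27220 (B) at 6 h. The identity of the cells was checked with marker genes. Of 8 preadipocyte or fibroblast markers, 6 or 7 had H3K27ac at the promoter in each list, whereas 0 of the 4 muscle, 0 of the 4 endothelial and 0 of the 4 epithelial markers did in any list, and at most 1 of the 4 immune and 1 of the 2 hepatocyte markers did. The summed H3K27ac length of the 8 adipocyte markers was 149.5 and 118 kb at 0 h and 291 and 251 kb at 48 h with the empty vector (A and B), and 108 and 125 kb at 0 h and 149.9 and 158 kb at 48 h with SETD5. All 8 adipocyte markers were called higher at 48 h with the empty vector and 2 of 8 with SETD5, so the 48 h groups also differed in the extent of differentiation, and its part in the matrix gene results was not tested.

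Nearly all matrix genes were acetylated. An H3K27ac island lay in the window of 45 to 46 of the 47 genes in each list, against 66.6 to 68.8% of the 22320 other protein-coding genes. Tnc, which encodes the matricellular protein tenascin C, and Fbn2, which encodes the microfibril protein fibrillin 2, were the genes without an island in some lists. The windows of matrix genes were longer, with a median of 94.7 kb against 55.4 kb for other genes, so coverage was also taken per length. H3K27ac islands covered 22.5 to 27.4% of the summed matrix gene windows and 5.99 to 7.78% of the other windows. The promoter was taken as 1000 bp before to 100 bp after the gene start. There 38 to 43 matrix genes had an H3K27ac island, against 43.7 to 46.5% of the other genes. A promoter island was present in all 8 lists at 37 matrix genes. No test was run on these shares, since genes are not replicates.

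**Figure D1:**
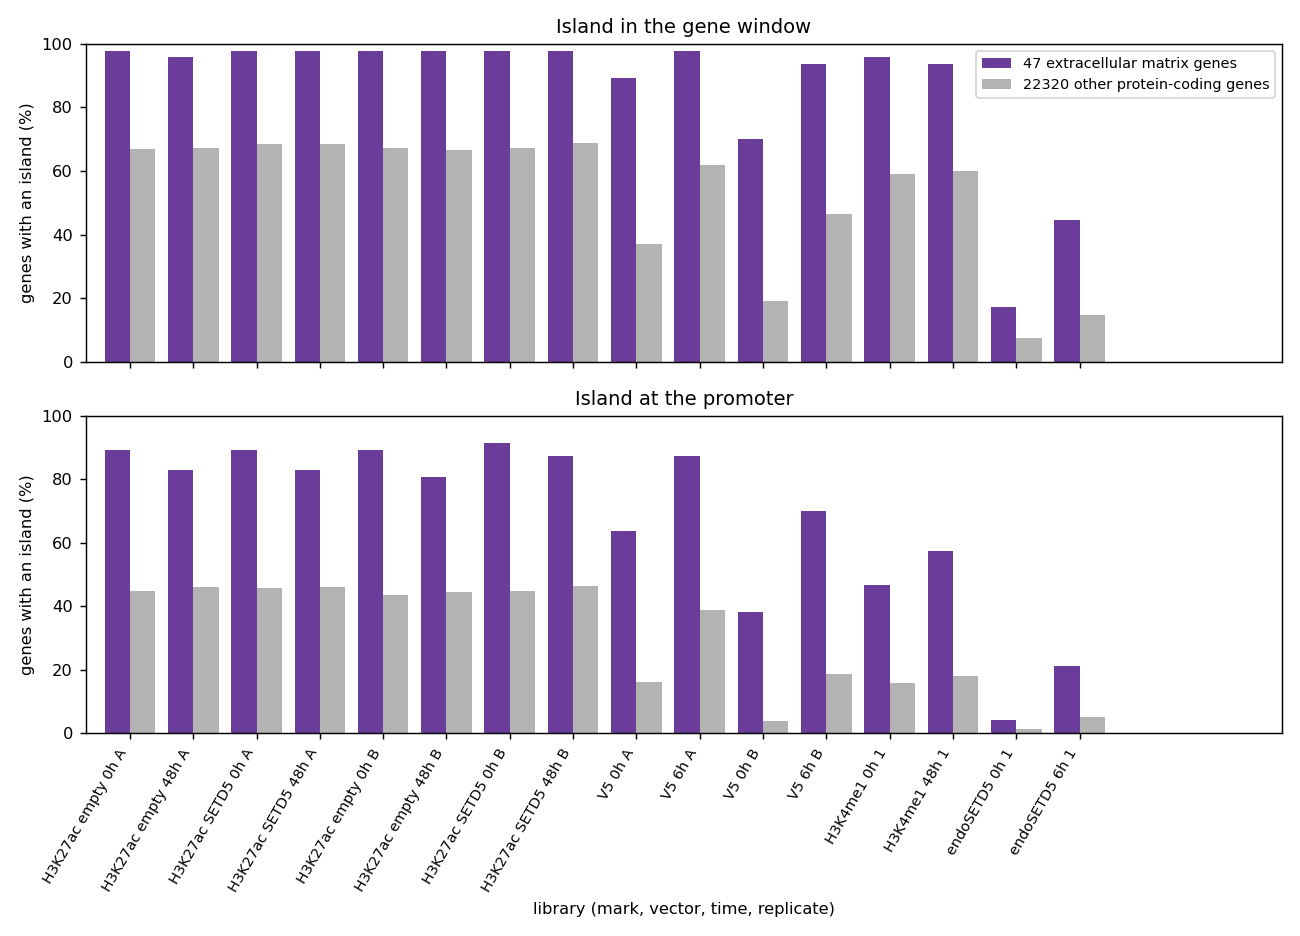
Percentage of genes with an island in the window (top) and at the promoter (bottom) in each of the 16 libraries, for the 47 matrix genes (purple) and the 22320 other protein-coding genes (grey). The purple bar is the taller one in every library, from 17.0 against 7.37% for endogenous SETD5 at 0 h to 97.9 against 66.8% for H3K27ac in empty vector 0 h A.

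In empty-vector cells 12 matrix genes gained and 10 lost H3K27ac length by 48 h. Those higher were 5 basement membrane genes (Lamb1, Col4a2, Col4a1, Nid1 and Col15a1), the proteoglycan gene Vcan, the collagen genes Col6a1, Col6a2, Col5a1 and Col5a3, and the fibulin genes Fbln5 and Fbln2. Those lower were matricellular genes (Tnc, Thbs2 and Thbs1), collagen genes (Col1a2, Col3a1 and Col12a1), protease genes and an inhibitor (Mmp3, Mmp14 and Timp3) and Loxl1. Differences are given as log2 of covered bp plus 1000, 48 h minus 0 h, with the standard error of the limma fit, and a gene is called where the p-value adjusted by the Benjamini-Hochberg method over all 16072 genes tested was under 0.05. All 47 matrix genes were tested. Across all genes tested, 20% were called higher and 11.7% lower. The shares of matrix genes called were 25.5% higher and 21.3% lower, and their median difference was -0.02, against 0.12 for the other genes. With 1 library left out, the median of the matrix genes was -0.078 to 0.087. By island score in place of covered length, 16 were called higher and 22 lower, among 4460 and 3547 of all genes, and the median of the matrix genes was -0.32. For this measure each island's score counted in proportion to its overlap with the window. Each library was also scaled to the mean total score, so measure and scaling changed together.

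Among the 8 basement membrane genes, 5 were called higher and none lower. Lamb1, which encodes the beta chain shared by many laminins, had 3.6 (A) and 3 kb (B) of H3K27ac at 0 h and 15.2 and 11.6 kb at 48 h. Both 48 h values were higher by several times, and nearly all of the covered length lay in the gene body, although the window also reaches Dld and Gm11053. The difference was 1.74 ± 0.19 (limma adjusted p = 0.00111). Col4a1 and Col4a2, which encode the collagen IV network, are transcribed head to head, and their windows share 40 kb. Col4a1 had 60.2 and 40.4 kb at 0 h and 112 and 110 kb at 48 h, and Col4a2 had 46.4 and 31.2 kb at 0 h and 118 kb in both replicates at 48 h. For both genes the replicates were closer together at 48 h than at 0 h, and the times did not overlap. The differences were 1.16 ± 0.18 (limma adjusted p = 0.00440) and 1.60 ± 0.18 (adjusted p = 0.00124), and they are not 2 independent results because of the shared stretch.

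Nid1, whose product nidogen links laminin to collagen IV, went from 10.3 and 12.8 kb to 25.4 and 19.8 kb (0.91 ± 0.17, limma adjusted p = 0.00893), a call that was lost without 48 h replicate A (adjusted p = 0.0533). Its relative Nid2 had 40.7 and 34.3 kb at 0 h and 36.1 and 31.1 kb at 48 h, with overlapping groups and no call. Col15a1, which encodes the basement membrane collagen XV, went from 25.4 and 28.4 kb to 46.6 and 41.2 kb (0.68 ± 0.13, adjusted p = 0.00936). Every 48 h value lay above both 0 h values, and without 48 h replicate A the adjusted p was 0.0613. Lamc1 and Lama4, for the laminin gamma and alpha chains, were not called.

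The fibrillar collagens went in opposite directions. Col1a2, which encodes the second chain of collagen I, had 47 and 40.4 kb at 0 h and 14.2 and 16.4 kb at 48 h. Col3a1, which encodes collagen III, had 56.8 and 47.2 kb at 0 h and 29.2 and 29.6 kb at 48 h. Both lost length in both replicates, with differences of -1.45 ± 0.19 (limma adjusted p = 0.00201) and -0.80 ± 0.11 (adjusted p = 0.00224). Col1a1, which encodes the partner chain of Col1a2, had 32.5 and 31.3 kb at 0 h and 29.3 and 28.1 kb at 48 h. Its groups did not overlap, but the difference of -0.15 ± 0.09 was not called (limma adjusted p = 0.260), and 3 other protein-coding genes lie in its window. Collagen V chains, which set fibril diameter, were higher or not called. Col5a1 went from 23.0 and 26 to 36.8 and 32.4 kb, and Col5a3 from 27.2 kb in both replicates to 44.8 and 40.8 kb. The Col5a1 call was lost without 0 h A or 48 h A, with 50 kb flanks, with equal numbers of islands and with scaling (limma adjusted p up to 0.126), and the Col5a3 call was kept under all 13 alternatives. Col5a2, whose window shares 15.4 kb with that of Col3a1, had 22.6 and 18 kb at 0 h and 24.2 and 19.4 kb at 48 h and was not called.

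Of the other collagens, Col6a1 and Col6a2, which encode chains of the beaded filament collagen VI, were called higher. Col6a1 had 23.8 kb in both replicates at 0 h and 43.4 and 41.2 kb at 48 h, and Col6a2 had 16 and 17.6 kb at 0 h and 27 and 24.6 kb at 48 h. The Col6a1 replicates were nearly identical within each time, and the difference was 0.80 ± 0.09 (limma adjusted p = 0.00107). Col12a1, whose product binds collagen fibrils, was called lower, from 45.0 and 38 to 30.8 and 30.4 kb (-0.42 ± 0.10, limma adjusted p = 0.0227). The Col12a1 call was lost without 0 h A, 48 h A or 48 h B (adjusted p up to 0.0862), and that of Col6a2 without 0 h A or 48 h A and within the gene body alone (adjusted p up to 0.110).

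The matricellular genes, whose products signal to cells rather than bear load, held losses at Tnc, Thbs2 and Thbs1. Tnc had 10.6 and 6 kb at 0 h and no island in its window in either 48 h list. The fitted difference of -3.17 ± 0.25 (limma adjusted p = 0.000302) depends on the added 1000 bp and gives no fold. Tnc met the filter of an island in at least 2 libraries only through 0 h lists, where it was the higher. Its call, though counted above, is therefore not read as a result, although it was kept without that filter. Thbs2, for thrombospondin 2, went from 43.9 and 37 kb to 17.6 and 12.6 kb (-1.38 ± 0.17, adjusted p = 0.00176). Thbs1, for thrombospondin 1, went from 15.1 and 13.3 kb to 7.6 and 5.6 kb (-1.01 ± 0.16, adjusted p = 0.00434), and within the gene body alone its call was lost (adjusted p = 0.138). Sparc and Postn were not called.

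Among the 8 protease and inhibitor genes, 3 were called lower and none higher. Timp3, for the matrix-bound metalloprotease inhibitor, had 43.4 and 34.2 kb at 0 h and 3.6 and 5.2 kb at 48 h. This loss covered the gene body and both flanks, in a window inside the neuronal gene Syn3, and the difference was -2.89 ± 0.30 (limma adjusted p = 0.000842). Mmp3, for stromelysin 1, went from 8.8 and 10.4 kb to 1.2 and 3 kb (-1.83 ± 0.28, adjusted p = 0.00384). Mmp14, for the membrane-type protease that activates MMP2, went from 21.4 and 20.6 kb to 15.6 and 14.8 kb (-0.44 ± 0.12, adjusted p = 0.0297), a call that did not survive the removal of any 1 of the 4 libraries.

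Of the remaining genes, Vcan, for the large proteoglycan versican, went from 8.2 and 5.4 kb to 23.8 and 16 kb (1.42 ± 0.24, limma adjusted p = 0.00520). The small proteoglycan genes Dcn, Lum and Bgn were not called. Fbln5, for an organiser of elastic fibres, went from 10.4 and 9.4 kb to 18.2 and 15 kb, and Fbln2, for a related fibulin, from 57.8 and 51.4 kb to 78.2 and 71.8 kb. Their differences were 0.69 ± 0.19 and 0.45 ± 0.13 (limma adjusted p = 0.0326 and 0.0360), and both calls were lost when any 1 of the 4 libraries was left out. Loxl1, for an elastin crosslinking enzyme, went from 40.8 and 36.6 kb to 29.2 and 29.8 kb (-0.38 ± 0.09, limma adjusted p = 0.0212). Its call was lost under 6 of 13 alternatives, which were the gene body alone, islands above the median score, island score and the removal of 0 h A, 48 h A or 48 h B (adjusted p up to 0.596). Fn1, for fibronectin, and Eln, for elastin, were not called.

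**Figure D2:**
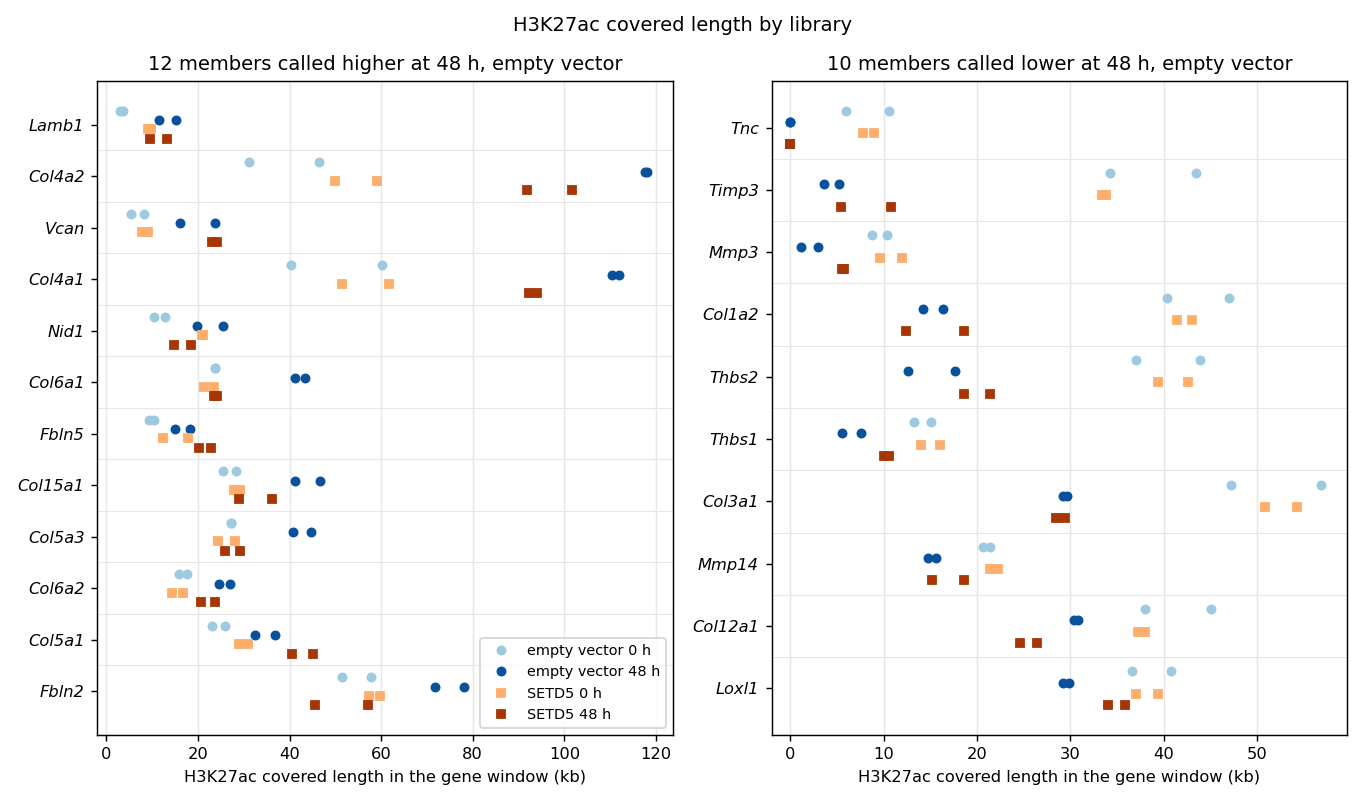
H3K27ac covered length (kb, horizontal axis) in the windows of the 12 matrix genes called higher (left) and the 10 called lower (right) at 48 h in empty-vector cells, with 1 point per library for empty vector (circles) and SETD5 (squares) at 0 h (pale) and 48 h (dark). Dark and pale circles do not overlap for any of these genes, whereas the Lamb1 and Col6a1 squares of both times lie close together.

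At promoters, 3 matrix genes lost the H3K27ac island that both empty-vector lists held at 0 h, with none in either at 48 h (Timp3, Mmp3 and Fbn1) and 1 had the reverse (Col15a1). The same losses were found for 1.15% and the same gains for 1.85% of the other protein-coding genes. Fewer of those had an island to lose. In the empty-vector 0 h lists 44.9 (A) and 43.7% (B) of them held a promoter island, against 89.4% of matrix genes in both. The Col15a1 promoter had no island in any of the 4 SETD5 lists. The Mmp3 promoter kept its island in both SETD5 48 h lists, and the Timp3 promoter kept it in 1 of 2. Tnc and Fbn2 had no promoter island in any of the 8 lists. With promoters taken as 2000 bp on each side, Col15a1 had an island in 1 of 2 SETD5 48 h lists, Fbn1 did not change and Fbln1 was lost, so the calls of the fibrillin and fibulin genes rest on the choice of promoter.

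The 250 bases upstream of the annotated start are shown for the 3 genes whose promoter changed under both definitions, because these are the sequences under the lost and gained islands. They are mm9 sequences read 5′ to 3′ on the plus strand, where all 3 genes lie, at chr10:85762867-85763116 for Timp3, chr9:7445572-7445821 for Mmp3 and chr4:47220783-47221032 for Col15a1. None overlaps an annotated exon. Capitals mark exact matches, on either strand, to 5 motifs. These were the AP-1 motif, spelled TGACTCA and also searched as TGAGTCA, the C/EBP half-site pair spelled TTGCNNAA, the TEAD motif spelled GGAATG, the TATA box spelled TATAAA, and the CCAAT box by those letters.
Timp3: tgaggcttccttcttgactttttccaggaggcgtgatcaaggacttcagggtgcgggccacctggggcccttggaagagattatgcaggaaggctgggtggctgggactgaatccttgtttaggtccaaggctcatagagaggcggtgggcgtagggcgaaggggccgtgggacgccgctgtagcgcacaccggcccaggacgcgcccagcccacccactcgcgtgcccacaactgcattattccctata
Mmp3: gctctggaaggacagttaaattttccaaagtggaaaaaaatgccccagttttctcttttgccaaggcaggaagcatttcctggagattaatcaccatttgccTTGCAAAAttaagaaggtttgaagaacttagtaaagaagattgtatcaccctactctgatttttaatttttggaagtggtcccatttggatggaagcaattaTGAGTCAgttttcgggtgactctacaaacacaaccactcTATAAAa
Col15a1: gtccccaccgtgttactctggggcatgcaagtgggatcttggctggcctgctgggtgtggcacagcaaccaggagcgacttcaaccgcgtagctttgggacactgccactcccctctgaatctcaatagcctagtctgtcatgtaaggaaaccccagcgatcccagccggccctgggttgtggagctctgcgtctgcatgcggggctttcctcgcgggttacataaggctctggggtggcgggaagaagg
The Mmp3 promoter holds an AP-1 match at 46 to 40 bases upstream of the annotated start, a C/EBP match at 148 to 141 bases and a TATA box at 7 to 2 bases. Of the 22367 protein-coding promoters of this length, 3.85% hold the AP-1 motif, 9.16% the C/EBP pair, 11.4% the TEAD motif, 12.3% the TATA box and 35.0% the CCAAT box. Neither the Timp3 nor the Col15a1 stretch holds any of these letters.

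With SETD5, 6 matrix genes were called higher and 8 lower at 48 h, against 13.1% and 10.0% of all genes tested. The median difference was 0.03 for matrix genes and 0 for the others. Vcan, Col4a1, Col4a2, Col5a1 and Col6a2 were called higher in both vectors, and Tnc, Timp3, Col1a2, Thbs2, Col3a1 and Col12a1 lower in both. Tnc had 7.8 and 9 kb at 0 h and again no island in either 48 h list. As with the empty vector, its call is counted but not read as a result. Col1a2 went from 43 and 41.4 kb to 12.4 and 18.6 kb (-1.41 ± 0.19, limma adjusted p = 0.00334), and Timp3 from 33.8 and 33.4 kb to 5.4 and 10.8 kb (-1.99 ± 0.30, adjusted p = 0.00517). In both genes the 2 times stood far apart, as they did with the empty vector. Thbs2 went from 39.4 and 42.6 kb to 18.6 and 21.4 kb (-1.0 ± 0.17, limma adjusted p = 0.00850), Col3a1 from 50.8 and 54.2 kb to 28.4 and 29.4 kb (-0.84 ± 0.11, adjusted p = 0.00271), and Col12a1 from 38 and 37.2 kb to 24.6 and 26.4 kb (-0.54 ± 0.10, adjusted p = 0.0122).

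Among the genes higher in both vectors, Vcan went from 7.8 and 9.2 kb to 23 and 24.2 kb with SETD5 (1.38 ± 0.24, limma adjusted p = 0.00838). The collagen IV pair followed, Col4a1 from 51.4 and 61.8 kb to 92.2 and 94 kb (0.71 ± 0.18, limma adjusted p = 0.0357) and Col4a2 from 50 and 59 kb to 91.8 and 102 kb (0.82 ± 0.18, adjusted p = 0.0221). Col5a1 went from 29 and 31 kb to 45.2 and 40.6 kb (0.50 ± 0.11, limma adjusted p = 0.0222), and Col6a2 from 14.4 and 16.8 kb to 20.6 and 23.8 kb (0.48 ± 0.13, adjusted p = 0.0369). The 2 times did not overlap for any of these 5 genes.

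Col8a1, Lamc1 and Fbn2 were past the threshold with SETD5 and not with the empty vector, and the interaction was called for none of the 3 (limma adjusted p = 0.108, 0.0824 and 0.483). Col8a1, for the short-chain collagen VIII, went from 17.4 and 18 kb at 0 h to 2.6 and 4.8 kb at 48 h (-2.03 ± 0.27, limma adjusted p = 0.00339). Lamc1, for the laminin gamma chain, went from 32 and 34 kb to 15.4 and 19.4 kb (-0.89 ± 0.17, adjusted p = 0.0126). Fbn2 had no island at 0 h and 2.2 and 1.4 kb at 48 h, a difference of 1.47 ± 0.39 (limma adjusted p = 0.0382) that rests on these short stretches, since 0 h was listed at 0. Fbn2 met the filter of an island in at least 2 libraries only through 48 h lists. Its call, though counted above, is therefore not read as a result. Without the filter or with the replicate letter as a block it was not called. The gains with SETD5 depended on single libraries. The calls of Col4a1, Col4a2, Col5a1, Col6a2 and Fbn2 were lost when any 1 of the 4 libraries was left out. That of Vcan was lost without 0 h A, 48 h A or 48 h B. Across all genes fewer were called higher in these fits too. Among the genes lower, Thbs2 lost its call without 48 h A or 0 h B, and Col12a1 and Lamc1 without either of these or 0 h A. Timp3 lost its call within the gene body alone (limma adjusted p = 0.0971). By island score 9 were called higher and 19 lower, among 2789 and 3449 of all genes.

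**Figure D3:**
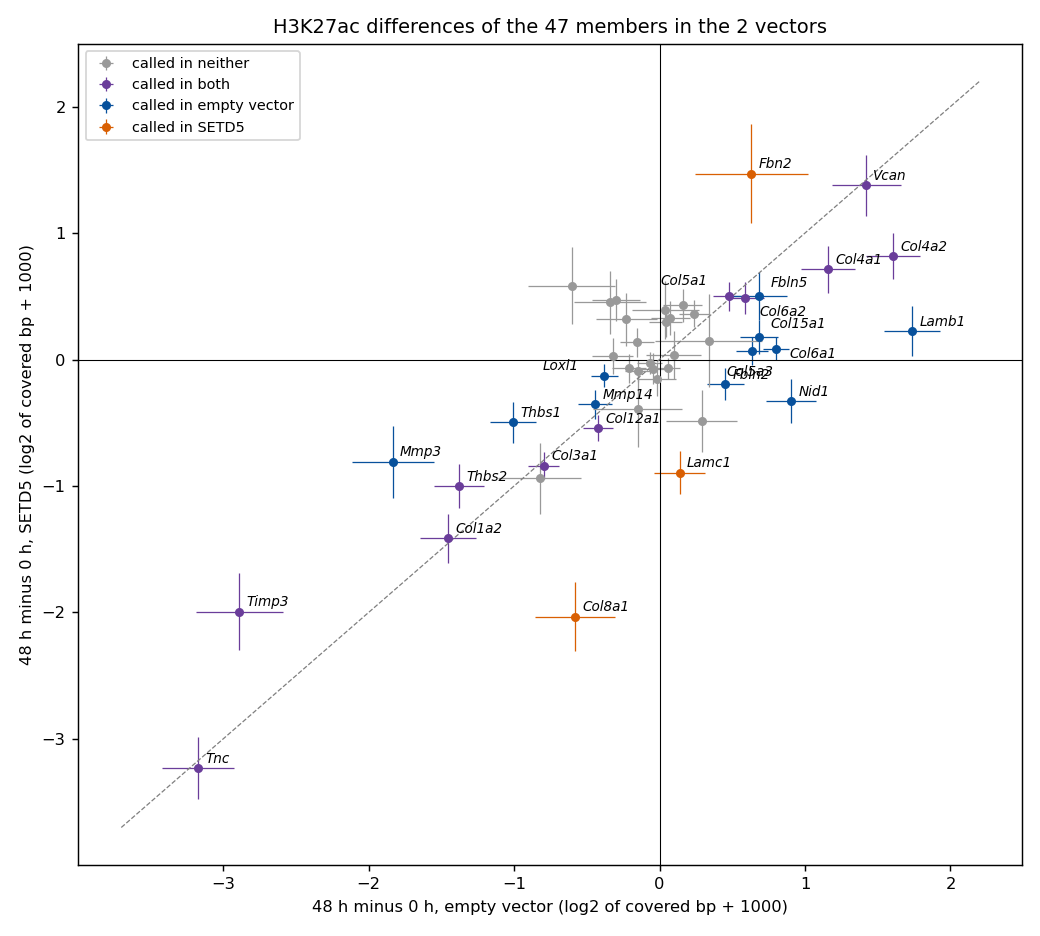
Difference in H3K27ac covered length between 48 h and 0 h for each of the 47 matrix genes in empty-vector cells (horizontal) and SETD5 cells (vertical), as log2 of covered bp plus 1000, with bars for the standard error of the fit and colours for the vector in which the gene was called. Tnc, Timp3 and Col1a2 lie far below 0 on both axes, while Lamb1, at 1.74 and 0.23, lies well under the dashed line of equal differences.

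Whether the change over time differed between the vectors was tested by the interaction. Across all genes 1.51% were called higher and 1.85% lower, and of the matrix genes 0 were called higher and 2 lower (limma, with 12 of 47 at an unadjusted p under 0.05). These counts depended on the measure. By island score 8 were called higher and 8 lower, with islands above the median score 5 and 4, and scaled to total covered length 1 and 6, among 844 and 1329, 586 and 704, and 422 and 559 of all genes in the same fits. With SETD5, Lamb1 had 9.2 and 9.8 kb at 0 h and 9.6 and 13.2 kb at 48 h. Its SETD5 values lay above the empty-vector values at 0 h, and their rise by 48 h was not called (0.23 ± 0.19, limma adjusted p = 0.490). At 48 h the difference of SETD5 from the empty vector was not called either (-0.22 ± 0.19, limma adjusted p = 0.535). The Lamb1 interaction was -1.51 ± 0.28 (limma adjusted p = 0.0416). Col6a1 had 21.4 and 23.6 kb at 0 h and 23.6 and 24.2 kb at 48 h with SETD5, and the 2 times overlapped. Its interaction was -0.72 ± 0.13 (adjusted p = 0.0374). Both calls were lost when any 1 of the 8 libraries was left out. Nid1, Fbln2 and Fbn1 moved in opposite directions in the 2 vectors without overlap between times. Nid1 went from 21.2 and 21 kb to 14.8 and 18.6 kb with SETD5, and its interaction of -1.23 ± 0.25 was not called (limma adjusted p = 0.0524), nor were those of Fbln2 (adjusted p = 0.118) and Fbn1 (adjusted p = 0.145).

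Before induction Col8a1 and Lamb1 had more H3K27ac length with SETD5 than with the empty vector. At 0 h, these 2 matrix genes were called higher with SETD5 and 0 lower, against 1.58% and 0.884% of all genes (limma, with 10 of 47 at an unadjusted p under 0.05). By island score, scaled as above, in place of covered length, 11 matrix genes were called higher and 1 lower, among 1032 and 535 of all 16072 genes. Col8a1 had 4.4 and 7 kb with the empty vector and 17.4 and 18 kb with SETD5 (1.51 ± 0.27, limma adjusted p = 0.0490). Lamb1 had 3.6 and 3 kb against 9.2 and 9.8 kb (1.29 ± 0.19, adjusted p = 0.0280). In both genes every SETD5 value was above both empty-vector values, and both calls were lost when any 1 of the 4 libraries was left out. The largest other differences without overlap were those of Nid1, with 10.3 and 12.8 kb against 21.2 and 21 kb, and Lamc1, with 22.4 and 17.2 kb against 32 and 34 kb, and neither was called (limma adjusted p = 0.0747 and 0.107).

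At 48 h, 5 matrix genes were called higher and 3 lower with SETD5, against 5.74% and 5.49% of all genes. The median difference was 0.14 for matrix genes and -0.06 for the others. It was -0.04 between the A replicates and 0.24 between the B replicates, and 0.0046 to 0.27 with 1 library left out. By island score 17 matrix genes were called higher and 11 lower, among 2596 and 2201 of all genes. Timp1, for a secreted metalloprotease inhibitor, had 2.2 and 2.8 kb with the empty vector and 9 and 9.4 kb with SETD5 (1.55 ± 0.30, limma adjusted p = 0.0247), in a window shared with Syn1 and Araf. Mmp3 had 1.2 and 3 kb against 5.6 and 5.8 kb (1.18 ± 0.28, adjusted p = 0.0468). Fbn1, for the microfibril protein fibrillin 1, had 64.8 and 61.5 kb against 111 and 118 kb (0.85 ± 0.16, adjusted p = 0.0244). These 3 genes were higher with SETD5 in both replicates.

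Fn1 had 5.2 and 4.4 kb with the empty vector and 7.8 kb in both replicates with SETD5 (0.60 ± 0.13, limma adjusted p = 0.0363), and Nid2 had 36.1 and 31.1 kb against 49.5 and 52.9 kb (0.60 ± 0.12, adjusted p = 0.0254). Collagen and fibulin genes made up the 3 that were lower. Col6a1 had 43.4 and 41.2 kb against 23.6 and 24.2 kb (-0.80 ± 0.09, limma adjusted p = 0.00453). Col5a3 had 44.8 and 40.8 kb against 26 and 29.2 kb (-0.62 ± 0.11, adjusted p = 0.0194), and Fbln2 had 78.2 and 71.8 kb against 45.6 and 57.2 kb (-0.54 ± 0.13, adjusted p = 0.0423). Col6a1 kept its call under every alternative tried, including the removal of each library. The calls of Timp1, Fbn1, Fn1, Nid2, Col5a3 and Fbln2 were lost when any 1 library of either 48 h group was left out. That of Mmp3 was lost without empty-vector A, SETD5 A or SETD5 B. Across all genes fewer were called in these fits too.

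SETD5-V5 lay on most matrix genes before induction. At 0 h, 42 (A) and 33 (B) of the 47 genes had a SETD5-V5 island in the window, against 36.9 and 19.0% of the other genes, and at 6 h, 46 and 44 did, against 62.0 and 46.6%. Per length, SETD5-V5 covered 29.2 and 15.5% of the summed matrix gene windows at 0 h and 40.5 and 33.4% at 6 h, and 6.06 and 2.26% and 12.6 and 8.60% of the other windows. A SETD5-V5 island was present in all 4 lists at 32 of the 47 genes, and Fbn2 had none in any list.

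Of the 45 matrix genes tested, 3 were called higher at 6 h and 0 lower, against 21.4% and 0.169% of all genes tested (limma, with 8 of 45 at an unadjusted p under 0.05). Vcan had 5.4 and 7 kb at 0 h and 101 and 99.8 kb at 6 h, of which 86.4 kb in each replicate lay within the gene body. The 6 h islands covered 79.1 and 78.5% of its window, and the difference was 3.82 ± 0.35 (limma adjusted p = 0.0202). That call was lost with scaling to the total covered length and without 0 h B, 6 h A or 6 h B. Tnc and Col11a1, for a minor fibrillar collagen, had no SETD5-V5 island at 0 h, and had 4 and 2.4 kb and 7 and 4.6 kb at 6 h. Both entered the fit only through their 6 h islands, since a gene needed an island in at least 2 libraries. Their calls (limma adjusted p = 0.0247 and 0.0209), counted among the 3, are therefore not read as a result. Without that filter neither was called, and no fold is given against an empty list. Among the largest differences without overlap, Fbln5 had 5.4 kb (A) and none (B) at 0 h and 43.2 and 35.2 kb at 6 h, Col8a1 had 3 kb and none and then 18.8 and 26.4 kb, and Nid1 had 5.6 kb and none and then 33.2 and 13.4 kb. All 3 were at 0 in replicate B before induction and none was called (limma adjusted p = 0.111, 0.0928 and 0.199).

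The rank of the groups was more uniform than the calls. Both 6 h values lay above both 0 h values at 26 of the 45 genes and below at 4, against 64.4% and 1.76% of all genes tested. The 4 were Col1a2, Col3a1, Postn and Mmp2. Col1a2 had 60 and 59.2 kb at 0 h and 54.8 and 46.2 kb at 6 h, and Col3a1 had 54.6 and 51.6 kb against 40.2 and 37.2 kb. Postn, for the matricellular protein periostin, had 37 and 18.8 kb against 15.8 and 13 kb, and Mmp2, for gelatinase A, had 39 and 40 kb against 30 and 33.6 kb. These 4 were lower in each replicate, while the lists as a whole grew, and none was called (limma adjusted p = 0.312 to 0.515).

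The median difference of the matrix genes was 0.89, with 0.49 in replicate A and 1.15 in replicate B, and that of the other genes was 1.79. The number of SETD5-V5 islands rose between these libraries. Scaled to the total covered length of each library, the medians were -0.69 and 1.01. In that fit 3 matrix genes were called higher and 7 lower, among 2409 and 136 of all 11227 genes. So the direction for matrix genes as a group depends on the scaling. With 1 library left out, the median of the matrix genes ran from 0.34 (without 0 h B) to 1.35 (without 0 h A). In the same fits the median of the other genes was 0.86 and 2.60. With every protein-coding gene in the fit, 0 genes were called in the whole genome.

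**Figure D4:**
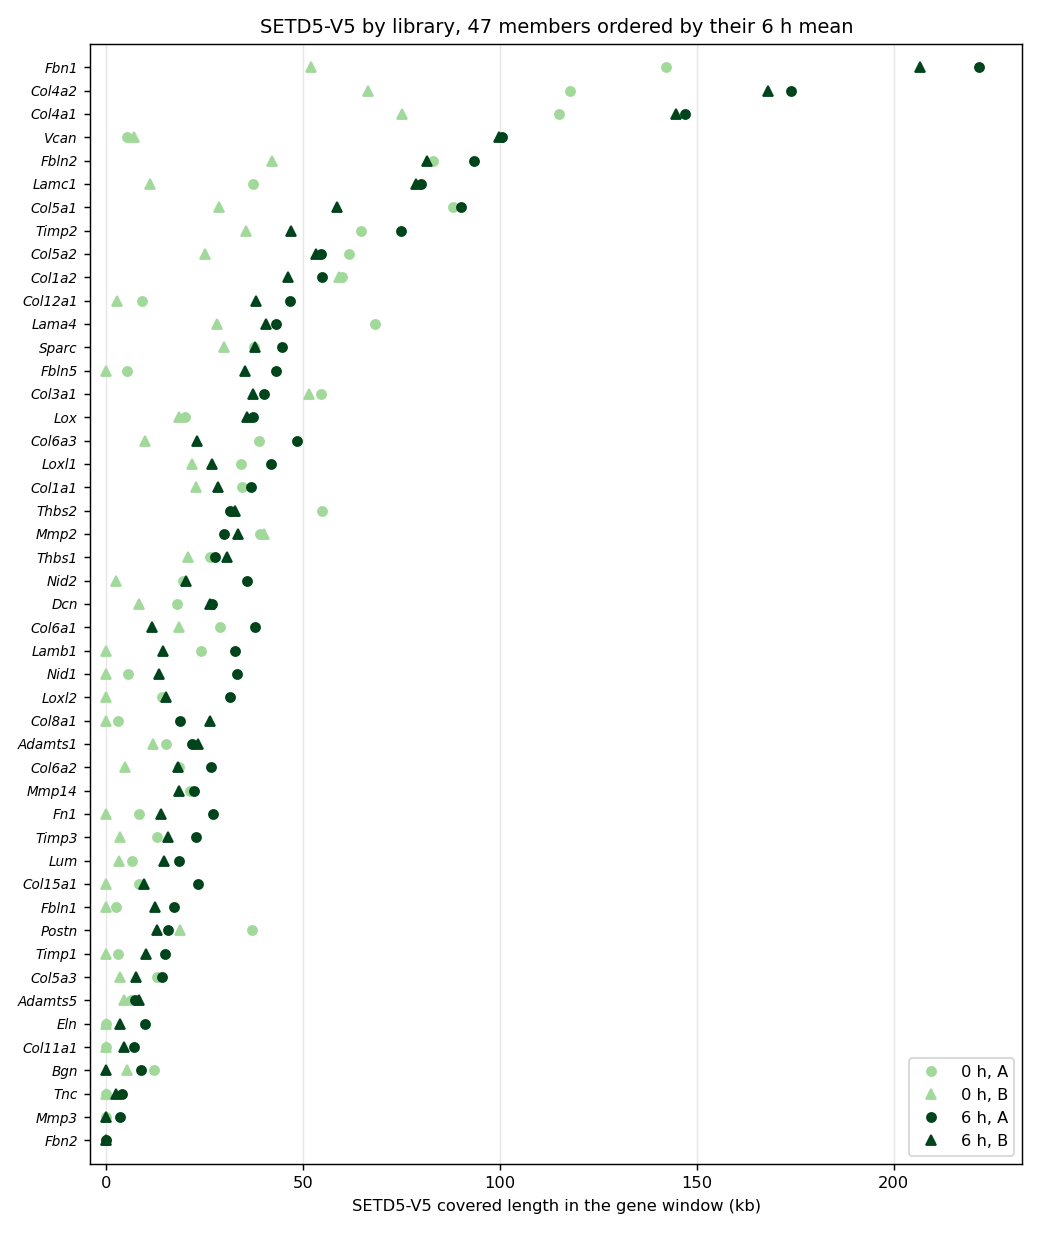
SETD5-V5 covered length (kb, horizontal axis) in the window of each of the 47 matrix genes, ordered by the 6 h mean, with pale symbols for 0 h, dark symbols for 6 h, circles for replicate A and triangles for replicate B. The 6 h symbols of Vcan lie near 100 kb and its 0 h symbols under 10 kb, while those of Col1a2 and Col3a1 lie to the left of their 0 h symbols.

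Endogenous SETD5, in 1 library per time, was detected at fewer genes. An island lay in the window of 8 matrix genes at 0 h and of 21 at 6 h, against 7.37 and 14.7% of the other genes. Among the 22 with an island at either time, 16 were higher by at least 2-fold of covered bp plus 1000 and 2 lower, against 64.2% and 11.7% of all such genes. Col4a1 had 3.2 kb at 0 h and 144 kb at 6 h, Col4a2 was listed at 0 kb and then at 145 kb, and Vcan at 0 kb and then at 91.4 kb. These islands covered 93.0% of the Col4a1 window, 82.3% of the Col4a2 window and 71.9% of the Vcan window at 6 h. In the SETD5-V5 lists at 6 h, Col4a1 had 147 and 145 kb and Col4a2 174 and 168 kb, above their 0 h values of 115 and 75.2 kb and of 118 and 66.6 kb. The 2 genes lower for endogenous SETD5 were Col3a1, from 15.6 to 6.4 kb, and Thbs2, from 3.6 kb to none, and Col1a2 went from 33 to 16.8 kb. No test is possible with 1 library per time.

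H3K4me1 was also measured once per time. An island lay in the window of 45 matrix genes at 0 h and of 44 at 48 h, against 59.2 and 60.1% of the other genes. Fn1 had none at either time. By at least 2-fold of covered bp plus 1000, 2 of 46 matrix genes were higher at 48 h and 5 lower, against 19.4% and 11.9% of all such genes. Vcan was listed at 0 kb and then at 11.2 kb, and Col5a2 went from 5.4 to 15.2 kb. Tnc and Fbn2 went from 3.4 and 2.6 kb to none, Adamts1, for an aggrecan-cutting protease, from 9 to 2.2 kb, Postn from 3 to 0.6 kb, and Mmp3 from 4 to 1.2 kb. Timp3, which lost most of its H3K27ac with the empty vector, had 33 kb of H3K4me1 at 0 h and 28 kb at 48 h, so its H3K4me1 stayed within 2-fold.

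Single islands were then followed. In the matrix gene windows, 41 H3K27ac islands at 23 genes were held by both 0 h lists of the empty vector and by neither of its 48 h lists, and 24 islands at 17 genes were gained. Of the lost islands, 21 were also absent from both SETD5 48 h lists (51.2%, against 63.8% of the islands lost elsewhere), and 14 were present in both (34.1%, against 23.2% of the 7827 islands lost in the rest of the genome). H3K4me1 was present at 48 h on 24 of the 41 lost islands (58.5%, against 32.1% elsewhere). Of the gained islands, 15 were present in both SETD5 48 h lists over the stretch shared by the replicates (62.5%, against 64.7% elsewhere) and 6 in neither (25%, against 24.0%), shares near those of the rest of the genome. Of the same 24, 15 overlapped SETD5-V5, by any length, in both 6 h lists (62.5%, against 36.3% of the 6234 gained elsewhere). Matrix gene windows as a whole were also covered more than other windows. SETD5-V5 at 6 h covered 40.5 and 33.4% of them, against 12.6 and 8.60%, and H3K4me1 at 48 h 24.2% against 8.39%. These shares describe islands, which are not replicates, and were not tested.

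The highest-scoring lost islands lay at Timp3, Thbs1 and Tnc. The Timp3 island, chr10:85762801-85767000, spans the promoter and first exon, and covered 3.4 kb of that stretch in SETD5 48 h B and none in SETD5 48 h A. The Thbs1 island, chr2:117972801-117977600, is intergenic, with its centre 37.6 kb downstream of the start, and lies mostly beyond the edge of the window. It was absent from both empty-vector 48 h lists, whereas the SETD5 48 h lists held 3 and 2.6 kb of it. SETD5-V5 covered all of it in both 6 h lists and already in 0 h A, and none of it in 0 h B. The Tnc island, chr4:63618801-63621000, lies over the 3′ end of the gene, was absent from all 48 h H3K27ac lists and had no SETD5 island on it in any list.

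The highest-scoring gained islands lay at Col15a1, at chr4:47220401-47224600 over the promoter and at chr4:47281801-47284200 inside the gene, and at Adamts1. The Adamts1 island, chr16:85769001-85774000, is intergenic, 31.9 kb from the start and beyond the 3′ end. The stretch shared by both replicates ends just short of the window, which the longer island of replicate A enters. It was absent from all 4 lists of 0 h, present at its full 5 kb in both empty-vector and both SETD5 48 h lists, and covered by SETD5-V5 in both 6 h lists and neither 0 h list. It had no H3K4me1 island at either time. Over the full extent of the island in both replicates, 4 gained islands were absent from both SETD5 48 h lists. The strongest of these was in Lamb1, chr12:31985801-31988400, 37 kb into the gene. It held 1800 bp of SETD5-V5 in 0 h A and none at 6 h. The others were beyond the 3′ end of Col12a1, in Col6a3 and in Vcan. Of the 4, 3 overlapped SETD5-V5 in both 6 h lists (75%, against 15.9% of the 1446 such islands elsewhere). Any overlap counted. At 6 h SETD5-V5 covered 800 (A) and 1600 bp (B) of 1800 bp at Col12a1, and 1000 and 2000 bp of 2200 bp at Col6a3. The higher SETD5-V5 coverage of matrix gene windows, given above, was not taken into account. Among 50 islands that SETD5-V5 gained by 6 h at 26 genes, the highest-scoring spanned 20 kb at the 3′ end of Vcan, chr13:89786201-89806200, and the next lay downstream of Lox and in Fbln1.

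A stretch of 200 bases is shown from each of 4 islands, 1 lost with both vectors (Tnc), 1 lost with the empty vector alone (Thbs1), 1 gained with both (Adamts1) and 1 gained with the empty vector alone (Lamb1). Each is the window nearest the centre of the island that overlaps no exon, in mm9 on the plus strand, at chr4:63619801-63620000 for Tnc, chr2:117975001-117975200 for Thbs1, chr16:85771401-85771600 for Adamts1 and chr12:31987001-31987200 for Lamb1. Capitals mark the AP-1, C/EBP and TEAD letters given above, on either strand.
Tnc: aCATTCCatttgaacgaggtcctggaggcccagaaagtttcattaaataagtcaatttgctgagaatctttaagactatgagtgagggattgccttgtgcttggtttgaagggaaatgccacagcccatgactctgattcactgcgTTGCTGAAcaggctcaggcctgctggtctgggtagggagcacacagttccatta
Thbs1: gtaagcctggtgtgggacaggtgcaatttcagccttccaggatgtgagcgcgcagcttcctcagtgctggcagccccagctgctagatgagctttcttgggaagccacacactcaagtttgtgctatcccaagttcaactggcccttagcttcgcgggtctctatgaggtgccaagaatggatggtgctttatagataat
Adamts1: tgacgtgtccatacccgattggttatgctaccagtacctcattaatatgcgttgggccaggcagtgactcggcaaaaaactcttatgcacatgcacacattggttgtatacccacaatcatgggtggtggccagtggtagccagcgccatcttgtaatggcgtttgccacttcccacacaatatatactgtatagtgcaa
Lamb1: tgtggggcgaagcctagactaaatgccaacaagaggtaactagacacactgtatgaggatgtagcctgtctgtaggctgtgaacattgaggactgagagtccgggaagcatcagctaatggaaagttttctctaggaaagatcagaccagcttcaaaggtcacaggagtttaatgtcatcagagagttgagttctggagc
The Tnc stretch holds 1 match to the C/EBP pair and 1 to the TEAD motif, and the other 3 hold none. Among the central 200 bases of all H3K27ac islands of empty vector 0 h A, 4.78% hold the AP-1 motif, 9.29% the C/EBP pair and 12.2% the TEAD motif, and in 48 h A 5.25, 9.8 and 10.4% do. Over their whole lengths the Tnc island (2200 bp) holds 0 AP-1 matches, 2 of the C/EBP pair and 2 of the TEAD motif, the Thbs1 island (4800 bp) 1, 2 and 2, the Adamts1 island (5000 bp) 3, 3 and 2, and the Lamb1 island (2600 bp) 0, 1 and 2. Per kb, the 41 lost matrix gene islands hold 0.19 AP-1 matches, 0.57 of the C/EBP pair and 0.62 of the TEAD motif, and the 24 gained hold 0.23, 0.53 and 0.72. In the rest of the genome the lost islands hold 0.23, 0.54 and 0.74 per kb and the gained 0.28, 0.6 and 0.58.

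Genes that process collagen and receptors that bind the matrix were examined beside them. Of 15 collagen processing genes, 2 were called higher and 2 lower at 48 h with the empty vector. Plod3 and Plod1, for lysyl hydroxylases, were higher at 1.66 ± 0.24 and 0.52 ± 0.13 (limma adjusted p = 0.00312 and 0.0232), and Lepre1 and P4ha1, for prolyl hydroxylases, lower at -1.16 ± 0.17 and -0.75 ± 0.19 (adjusted p = 0.00346 and 0.0268). With SETD5, 1 was higher and 2 lower. Of 21 matrix receptor genes, 5 were higher and 8 lower with the empty vector, and 3 and 7 with SETD5, beside the shares of all genes given above (20% higher and 11.7% lower with the empty vector, 13.1% and 10.0% with SETD5). Itga11, for a collagen-binding integrin chain, was lower in both (-2.85 ± 0.42 and -2.57 ± 0.42, limma adjusted p = 0.00320 and 0.00685). Itgb8, for an integrin chain, was higher with the empty vector (1.43 ± 0.18, adjusted p = 0.00186) and was the 1 receptor gene with a called interaction (-1.53 ± 0.26, adjusted p = 0.0338). For SETD5-V5 at 6 h, 3 of 13 processing genes and 2 of 19 receptor genes tested were called higher and none lower, against 21.4% and 0.169% of all genes tested.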

How the data were processed

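The 47 genes and all lists were chosen with earlier results of these data known. Per the labels and the study's methods, the authors aligned reads to the mm9 genome (ELAND or Bowtie2) and called islands in each library separately with SICER, in windows of 200 bp. Each deposited list gives chromosome, start and end positions and the authors' island score. The lists hold no counts or read depth, so a region absent from a list was below the caller's threshold, and no interval for counting error can be given. Positions were compared with the NCBIM37 genome and GENCODE annotation of the same build, and 0 lists had an island beyond a chromosome end.

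Covered bp per gene window were transformed as log2 of bp plus 1000 and fitted with limma 3.58.1 (R 4.3.3), in a group-means model with a mean-variance trend, over protein-coding genes with an island in at least 2 libraries of the fit. The 8 H3K27ac libraries shared 1 model (16072 genes) and the 4 SETD5-V5 libraries another (11227 genes). P-values were adjusted by Benjamini-Hochberg over all genes tested. With 2 replicates per group they measure the spread between these libraries, pooled over the groups of a model and moderated across genes. Per the study, experiments used the SETD5 line of moderate expression unless stated otherwise. Replicates of a line do not repeat the transduction, so vector and line cannot be told apart. Scripts used Python 3.11.15 and pysam 0.24.0 and were tested on simulated data. Genes given with their values in each library were those called, up to 10 in each direction by size of difference without overlap between groups, or the 4 largest without overlap where fewer than 4 were called. Genes with fewer or added values were named for their role or neighbour and chosen after the values were seen, as were the printed promoters. Islands named were up to 3 of each kind by mean score rank. The alternatives tried are given under the dependence on processing.

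Replicate letters were checked as pairs. The deviations of A from B correlated at -0.04 to 0.10 between H3K27ac groups and at 0.21 between the 2 SETD5-V5 times, a single comparison of 2 pairs, so the letters were not treated as pairs.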

Additional observations from a re-analysis of the deposited data

Results flagged for a closer look

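The change in H3K27ac between 0 h and 48 h differed between the vectors for 2 matrix genes by the interaction test. For Lamb1 the change with SETD5 minus the change with the empty vector was -1.51 on the log2 scale of covered bp plus 1000 (limma adjusted p = 0.0416), and with SETD5 the gene already had more H3K27ac at 0 h. For Col6a1 it was -0.72 (limma adjusted p = 0.0374), with 23.8 kb in both empty-vector libraries and 21.4 and 23.6 kb with SETD5 at 0 h. Both calls were lost when any 1 of the 8 libraries was left out.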

How the results depend on the processing

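Island lists carry no read depth, so a gene's loss of an island can be a small shift across the caller's threshold, and covered length cannot show a change in height. Of 661 values of named genes under alternatives, 483 kept their direction and side of the threshold, 177 were no longer past it and 1 changed sign (Fbln2 with the empty vector, -0.10 by island score). All 36 presence counts stayed within 1.5 times. The cause of the changes below was not tested.

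By island score in place of covered length, the empty vector had 22 matrix genes lower (median -0.32) and SETD5 19 lower (median -0.25). The vectors then differed at 0 h with 11 higher and 1 lower, at 48 h with 17 higher and 11 lower, and in the interaction with 8 higher and 8 lower (median 0.14), and SETD5-V5 had 5 lower (median 0.42). Of all 11227 genes tested, 54 were lower for SETD5-V5 by this score. Without the filter, SETD5 over time had 2 higher, the vectors 0 higher at 0 h and 1 at 48 h, the interaction 1 lower and SETD5-V5 0 higher. Of all 22367 genes these were 1559, 130, 569, 183 and 0. With gene bodies only, 2 were higher between vectors at 48 h, 1 lower in the interaction (median 0.032) and 1 lower for SETD5-V5. Of all genes these were 593 and 280 of 12881, and 10 of 7811. With 50 kb flanks, 9 matrix genes were higher between vectors at 48 h, 1 lower in the interaction (median 0.029) and 5 higher for SETD5-V5. Of all genes these were 1209 and 372 of 17869, and 2658 of 13825. Islands above the median score gave 8 higher at 48 h, 5 higher and 4 lower in the interaction and 7 higher for SETD5-V5. Of all genes these were 1079, 586 and 704 of 13946, and 2088 of 8068. Equal numbers of islands gave 1 higher at 0 h, 1 higher at 48 h and 1 lower for SETD5-V5. Of all genes these were 167 and 585 of 15740, and 322 of 5845. A pseudocount of 200 bp gave 1 higher at 0 h, among 284 of all 16072 genes. Scaled to total covered length, 8 were higher at 48 h, 1 higher and 6 lower in the interaction (median 0.014), and 7 lower for SETD5-V5 (median -0.69). Of all genes these were 1324, 422 and 559 of 16072, and 136 of 11227.

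With the replicate letter as a block, 0 matrix genes were higher between vectors at 0 h, 0 lower in the interaction and 6 higher for SETD5-V5. Of all genes these were 129 and 102 of 16072, and 3018 of 11227. No other count of calls of matrix genes moved by over 1.5 times. With 1 library left out, a group holds a single library, so the counts that follow are not read as enrichment. Across all genes, fewer were called in both directions in every such H3K27ac fit. For SETD5-V5, more genes were called higher across the genome without 0 h A, the fit with the highest count of matrix genes, and fewer in the other fits. Without 0 h A the median was 1.35 for matrix genes and 2.60 for the other genes. Leaving out 1 library gave, for the empty vector, 7 to 10 higher and 7 to 13 lower (median -0.078 to 0.087), and for SETD5, 0 to 2 higher and 5 to 8 lower (median -0.079 to 0.10). Between vectors it gave 0 higher at 0 h, and 0 to 2 higher and 1 lower at 48 h. The interaction had 0 lower (median -0.067 to 0.12), and SETD5-V5 0 to 26 higher (median 0.34 to 1.35).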
